A study of Mus musculus with 24 samples.

Results

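The mucin genes *Muc2*, *Muc1*, *Muc4*, *Muc13* and *Muc20* and the nucleotide receptor gene *P2ry4* were examined in the distal jejunum of mice lacking protein tyrosine kinase 6 (*Ptk6*). These 6 genes were taken by symbol from the 56691 genes of the deposited count table, where 34471 were detected in 1 library or more. *Muc2* and *P2ry4* had been picked out of these libraries for how they differed with genotype and succinate, so their values in those comparisons are given as a description, without a test. The other 4 members are membrane mucins, and *Muc4* also belongs to a gene list that the study drew from these libraries.

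RNA-seq was performed on poly(A) RNA from the distal jejunum of 24 mice, 1 stranded library per mouse. The mice fell into 8 groups of 3. Males and females, each wild type or *Ptk6*-/-, drank regular water (control) or water with 100 mM succinate for 7 days. Wild type and *Ptk6*-/- mice were C57BL/6 animals aged 9 to 11 weeks, matched for age and taken from different litters of 1 colony, and *Ptk6* was disrupted in the germline, hence in every tissue. Total counts were 8080321 to 52824743 per library (median 43017686.5). *Ptk6* itself lay between 0.305 and 1.92 TMM-normalized CPM (counts scaled to a fixed library total) in the *Ptk6*-/- libraries and between 9.21 and 48.8 CPM in the wild type libraries. The sample is whole tissue, so fewer cells of a type and less RNA per cell cannot be told apart.

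Mucins are large glycoproteins that coat mucosal surfaces. MUC2 is secreted by goblet cells and polymerizes into the gel that separates bacteria from the intestinal epithelium, whereas MUC1, MUC4, MUC13 and MUC20 stay anchored in the apical membrane, where they form part of the glycocalyx. P2RY4 is a G protein-coupled receptor for extracellular nucleotides and is coupled to chloride secretion on intestinal epithelial cells. Succinate in drinking water activates tuft cells through the receptor SUCNR1, and the type 2 response that follows increases goblet cells in the small intestine.

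The 6 genes lie on 4 chromosomes (GRCm39, positions as deposited). *Muc2* is at chr7:141276583-141308430 on the plus strand, *Muc1* at chr3:89136364-89140688 on the plus strand and *P2ry4* at chrX:99633760-99638475 on the minus strand. *Muc4* (chr16:32555015-32602754, plus strand), *Muc20* (chr16:32597793-32617805, minus strand) and *Muc13* (chr16:33614407-33640304, plus strand) share a chromosome. *Muc4* and *Muc20* overlap over 4962 bp on opposite strands, with mean counts of 1808 and 22.8. Whether strand was used in counting is not given in the sources used here, so *Muc20* is uncertain, since reads of *Muc4* could be counted as *Muc20*. *Muc13* also overlaps the antisense gene *Gm15657* (mean count 70.3).

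Because *Muc2* and *P2ry4* were set side by side below, the 250 bases before their transcription starts are shown, with those of *Muc4* and *Muc13* as the membrane mucins with the highest counts. The sequences are RefSeq's (GRCm38.p6), written 5′ to 3′ in the direction of the gene, and capitals mark AGATAA on either strand (TTATCT on the other), the letters that GATA factors of the jejunal epithelium are known to bind.

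Muc2, chr7:141690090-141690339, plus strand: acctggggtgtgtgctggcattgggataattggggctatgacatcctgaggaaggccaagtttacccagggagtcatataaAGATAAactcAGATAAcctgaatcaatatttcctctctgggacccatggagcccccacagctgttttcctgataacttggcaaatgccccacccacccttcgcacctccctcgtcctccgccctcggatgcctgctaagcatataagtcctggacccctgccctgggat

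P2ry4, chrX:100594870-100595119, minus strand: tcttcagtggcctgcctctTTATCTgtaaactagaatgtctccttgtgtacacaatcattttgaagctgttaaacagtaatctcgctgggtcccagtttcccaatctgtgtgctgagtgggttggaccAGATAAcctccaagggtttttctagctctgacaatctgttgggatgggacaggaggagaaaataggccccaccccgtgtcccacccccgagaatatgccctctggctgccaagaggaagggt

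Muc4, chr16:32735636-32735885, plus strand: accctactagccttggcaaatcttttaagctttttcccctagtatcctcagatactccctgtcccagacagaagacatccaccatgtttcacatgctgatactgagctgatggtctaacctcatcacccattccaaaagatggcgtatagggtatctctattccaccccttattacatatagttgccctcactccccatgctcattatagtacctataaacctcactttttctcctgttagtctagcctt

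Muc13, chr16:33794239-33794488, plus strand: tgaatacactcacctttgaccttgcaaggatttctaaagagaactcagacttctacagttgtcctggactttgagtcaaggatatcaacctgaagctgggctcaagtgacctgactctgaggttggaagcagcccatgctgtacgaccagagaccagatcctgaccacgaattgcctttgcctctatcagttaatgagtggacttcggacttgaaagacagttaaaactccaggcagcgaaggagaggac

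The *Muc2* window held AGATAA at 169 and 159 bases before the start, and the *P2ry4* window held it at 231 bases before the start on the opposite strand and at 122 bases on the gene's strand. No AGATAA was found in the windows of *Muc1*, *Muc4*, *Muc20* or in the 2 windows of *Muc13*. Of 32851 promoter windows of this length, 9.99% held AGATAA on either strand and 0.938% held it at 2 or more places. The longest run that the *Muc2* and *P2ry4* windows shared on the gene's strand was CAGATAACCT, which occurs in 7 windows of the 32851 (0.0213%). The run was picked from these 2 windows, so its rarity does not measure how unusual the sharing is. How often 2 windows share a run of this length was not computed. TTTAT, the letters bound by CDX2, was searched on both strands as well and occurred in 37.3% of windows. It was found at 1 place each in the windows of *Muc1*, *Muc4* and *P2ry4* and in the window of *Muc13* not shown, and at 2 places in that of *Muc2*. The places in *Muc2* and *P2ry4* overlapped an AGATAA. A match in letters is a description of the window and shows no binding.

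To set the genes on 1 scale, deposited FPKM was compared, since it divides the fragments of a gene by its length and by the library's total. *Muc13* was the highest member, with a median FPKM of 599.9 over the 24 libraries (165 to 1612). *Muc2* followed at 133 FPKM (56.2 to 380). *Muc4* lay far lower at 1.59 FPKM (0.545 to 6.61). *Muc13* made up 99.1% to 99.9% of the summed FPKM of *Muc1*, *Muc4*, *Muc13* and *Muc20* in each library, a sum that leaves out the abundant membrane mucin *Muc3*. *P2ry4* had a median of 0.186 FPKM (0 to 1.32), *Muc1* 0.0991 (0 to 0.310) and *Muc20* 0.0888 (0 to 0.221). In counts, *Muc2* lay between 12703 and 314059 and *Muc13* between 8722 and 296678, so both were well measured in every library. *Muc4* had 140 to 5207 counts and *P2ry4* 0 to 361. *Muc1* (0 to 47 counts) and *Muc20* (0 to 53 counts) were near the limit of detection, and *Muc20* was at or under the floor of 3 counts in 6 libraries. *P2ry4*, *Muc1* and *Muc20* were all at 0 counts in replicate 2 of the wild type male succinate group, the library with the most counts, where 3 counts would be 0.0607 CPM.

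**Figure D1:**
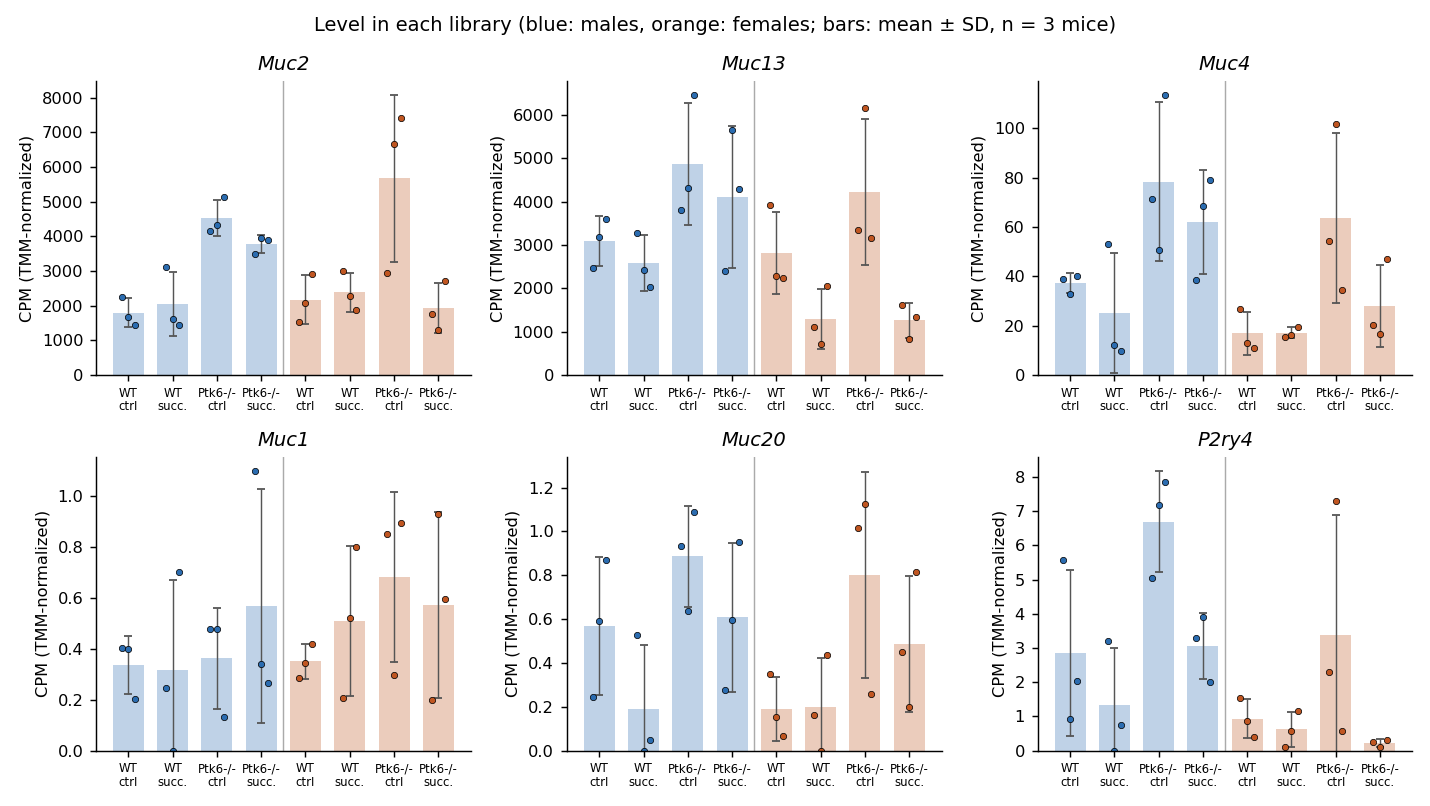
Level of each gene in each library, in TMM-normalized CPM (linear axis from 0), with bars for the group mean and error bars for the SD over 3 mice. *Muc2* was above every wild type library in the male *Ptk6*-/- controls (4163 to 5124 CPM) and *P2ry4* had its lowest group mean in the succinate-treated *Ptk6*-/- females (0.0987 to 0.322 CPM).

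Ordered by group mean FPKM, *Muc2* was highest in the *Ptk6*-/- female controls (295 ± 103, SD, n = 3) and the *Ptk6*-/- male controls (262 ± 11.4), and lowest in the wild type male controls (77.9 ± 20.2). For *Muc2*, the FPKM of neighbouring groups in that order overlapped in 6 of 7 pairs, the exception being the *Ptk6*-/- male controls above the succinate-treated *Ptk6*-/- males. *Muc13* was also highest in the 2 groups of *Ptk6*-/- controls, with the males first (1276 ± 266 FPKM) and the females second (1063 ± 501 FPKM). *P2ry4* ran from 1.21 FPKM in the *Ptk6*-/- male controls to 0.0418 FPKM in the succinate-treated *Ptk6*-/- females. For *Muc13* neighbours also overlapped in 6 of 7 pairs, the exception being the wild type female controls above the succinate-treated *Ptk6*-/- females. For *Muc4*, *Muc1*, *Muc20* and *P2ry4* they overlapped in all 7 pairs.

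Some libraries stood apart. The 18S ribosomal RNA gene *Rn18s-rs5* took 51.2% of counts in replicate 1 of the wild type male controls and 29.7% in the first of the *Ptk6*-/- male succinate libraries (median over libraries 0.397%). The latter also held 8328 CPM of distal intestine markers, against at most 2917 CPM in any other library. The library labelled replicate 2 of the wild type female succinate group held 20394 CPM of heart markers and 74.3 CPM of Y-linked genes. Lung airway markers summed to 11.98 to 18.5 CPM in the *Ptk6*-/- female controls, 6.85 to 11.1 CPM in the succinate-treated *Ptk6*-/- females and 16.4 CPM in replicate 3 of the wild type female succinate group, and to at most 0.72 CPM elsewhere. Enterocyte and goblet cell markers were detected in every library. The slope of a library's log2 CPM on gene length, relative to the other libraries, ranged from -0.20 to 0.19.

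The effect of *Ptk6* loss was first described in control males. Secreted *Muc2* had 2252, 1680.2 and 1447 CPM in the wild type libraries and 4163, 4321 and 5124 CPM in the *Ptk6*-/- libraries. Each *Ptk6*-/- library was above all wild type libraries, and the log2 fold change was 1.31 (SE 0.26). The membrane mucins leaned the same way by less. *Muc13* had 2479.7, 3192 and 3606 CPM in wild type and 3814, 4313 and 6463 CPM in *Ptk6*-/- males, which is 0.64 on the log2 scale (SE 0.27, edgeR adjusted p = 0.184). *Muc4* had 38.8, 32.8 and 40.2 CPM in wild type and 71.1, 50.5 and 113 CPM in *Ptk6*-/- males (log2 fold change 1.05, SE 0.27, edgeR adjusted p = 0.0598). Both genes were separated between genotypes library by library, but neither passed the adjusted threshold by edgeR. *Muc4* did in 4 of 10 alternatives, with DESeq2 (adjusted p = 0.000580), with voom (0.0191), and by edgeR with no filter (0.0355) or with at least 10 counts in every library (0.0426). Over the 10 its values were 0.24 to 1.10 (adjusted p up to 0.932), and in none of the 6 edgeR fits that left out 1 library (0.69 to 1.29) did it pass. *Muc13* was called in none of its 10 alternatives, although its lowest adjusted p among them was under 0.05. *P2ry4* had 5.58, 0.938 and 2.05 CPM in wild type and 5.04, 7.19 and 7.86 CPM in *Ptk6*-/- males, with a log2 fold change of 1.28 (SE 0.58). Replicate 1 of the wild type males lay within the *Ptk6*-/- range, so the groups overlapped. Without that library, in which ribosomal RNA took most counts, the log2 fold change was 2.19 for *P2ry4*, 1.56 for *Muc2*, 1.12 for *Muc4* and 0.54 for *Muc13*. *Muc1* (log2 fold change 0.14, SE 0.70, edgeR adjusted p = 0.929) and *Muc20* (0.56, SE 0.49, edgeR adjusted p = 0.532) were too low to place. Proximal intestine markers were also higher without overlap in the *Ptk6*-/- male controls (516, 628 and 644 CPM, against 441, 459 and 465 CPM in wild type), and so was the length slope described further on (0.13 to 0.19 against -0.07 to 0.01). Their part in the member values was not tested.

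Calls required an edgeR adjusted p under 0.05 and at least a 2-fold change, which 142 of the 19218 genes tested in control males met (0.739%). Among the members only *Muc2* met it, from which nothing is read because the gene was chosen on this contrast. Groups did not overlap for 3 of the 6 members (*Muc2*, *Muc4* and *Muc13*), each higher in *Ptk6*-/- mice, where 16.5% of all genes tested were higher without overlap. Of these, *Muc2* was chosen on this contrast and *Muc4* belongs to a gene list drawn from these libraries. *Muc2* was no longer called without replicate 2 or 3 of the wild type males or replicate 2 or 3 of the *Ptk6*-/- males, where its log2 fold change stayed between 1.15 and 1.34.

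In control females the fitted value of all 6 members was above 0. *Muc2* had 1521, 2078 and 2911 CPM in wild type and 2928, 6672 and 7415 CPM in *Ptk6*-/- females (log2 fold change 1.41, SE 0.46). The lowest *Ptk6*-/- library lay just above the highest wild type library. *Muc13* had 3918, 2283 and 2239.8 CPM in wild type and 3356, 6171 and 3150.4 CPM in *Ptk6*-/- females (log2 fold change 0.63, SE 0.42, edgeR adjusted p = 0.595), with overlap. *Muc4* had 26.9, 12.9 and 10.997 CPM in wild type and 54.4, 102 and 34.5 CPM in *Ptk6*-/- females, without overlap (log2 fold change 1.95, SE 0.49, edgeR adjusted p = 0.367). *P2ry4* had 1.53, 0.864 and 0.397 CPM in wild type and 2.29, 7.31 and 0.577 CPM in *Ptk6*-/- females, with overlap (log2 fold change 1.91, SE 0.88). edgeR called 3 of 19035 genes (0.0158%), none of them a member. DESeq2 called 169 genes, *Muc4* among them (log2 fold change 1.94, DESeq2 adjusted p = 0.0143). The share of all genes called by DESeq2 is given in the closing section on processing. *Muc4* belongs to a gene list drawn from these libraries, which makes its call no independent evidence. *Ptk6*-/- libraries all lay above wild type libraries for 2 members (*Muc2* and *Muc4*), against 8.51% of genes tested. Because *Muc2* was chosen for being higher in *Ptk6*-/- controls and *Muc4* is on that gene list, nothing is read from this count. Without replicate 3 of the *Ptk6*-/- females, edgeR called 1808 of 18731 genes (9.65%) and 3 members (*Muc4*, *Muc20* and *P2ry4*), and *Muc4* was then at 2.26 on the log2 scale (edgeR adjusted p = 0.0275). The other *Ptk6*-/- libraries had length slopes of 0.10 and 0.17, against -0.12 to -0.01 in wild type. Their enterocyte markers were 18514 and 24068 CPM, against 40825 to 47873 CPM. Their goblet cell markers were 6605 and 8570 CPM, against 12609 to 13516 CPM. The part of slope and markers in these calls was not tested. Without replicate 2 of the *Ptk6*-/- females no member was called, and the values were 0.68 for *P2ry4*, 1.44 for *Muc4*, 1.28 for *Muc2* and 0.25 for *Muc13*. The *Ptk6*-/- female controls are also the libraries with lung airway markers, with 0 of 7 such markers at 0. B cell follicle markers were higher in them without overlap (36.9, 51.2 and 20.9 CPM, against 16.2, 16.3 and 9.56 CPM in wild type). The part of both marker sets in the member values was not tested.

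To use all 12 control mice, genotype was fitted with sex as a second term. *Muc4* was higher in *Ptk6*-/- mice by 1.49 on the log2 scale (SE 0.32, edgeR adjusted p = 0.0298) and passed the call threshold, which 145 of 20428 genes did (0.71%). Its membership in the study's own list makes this no independent evidence. *Muc4* was called in 5 of 9 alternatives, with log2 fold changes between 0.88 and 1.52. It was not called with the replicate number as a block, with limma on FPKM, or with the length offset described further on, with or without the block. The call held in 4 of the 12 fits that left out 1 library, with log2 fold changes between 1.21 and 1.65 and adjusted p between 0.00485 and 0.0770. The 8 libraries without which it was lost were replicates 2 and 3 of the wild type males, 1 and 3 of the *Ptk6*-/- males, 2 and 3 of the wild type females, and 1 and 2 of the *Ptk6*-/- females. *Muc2* had a log2 fold change of 1.36 (SE 0.25) and *P2ry4* 1.57 (SE 0.57). Over the alternatives *Muc2* was between 0.74 and 1.57 and *P2ry4* between 0.58 and 2.18. Leaving out 1 library moved *P2ry4* between 0.99 and 2.05. *Muc13* (0.62, SE 0.24, edgeR adjusted p = 0.137), *Muc20* (1.31, SE 0.53, adjusted p = 0.155) and *Muc1* (0.57, SE 0.46, adjusted p = 0.487) did not pass. *Muc2* was the 1 member whose 6 *Ptk6*-/- controls all lay above all 6 wild type controls, against 1.58% of genes tested. From this separation nothing is read, because *Muc2* was chosen for its genotype pattern in these libraries.

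The genotype difference was next compared between the sexes. *Muc2* and *P2ry4* were chosen for being higher in *Ptk6*-/- controls of both sexes, so nothing is read from their values here. For the sex by genotype interaction in controls edgeR called 0 of 20428 genes (0%), 4.64% had an unadjusted p under 0.05 with none of the 4 membrane mucins among them, and DESeq2 called 13. The female minus male difference in log2 fold change was 0.10 for *Muc2* (95% interval -0.90 to 1.11), 0.66 for *P2ry4* (-1.56 to 2.89) and 0.90 for *Muc4* (-0.27 to 2.07). The interval of *Muc4* includes 0 and is too wide to show that the sexes were alike. Between sexes over both genotypes, *P2ry4* was 1.28 lower in females on the log2 scale (-1.28, SE 0.56, edgeR adjusted p = 0.415) and *Muc4* 0.74 lower (-0.74, SE 0.32, adjusted p = 0.415). Neither passed, and 13 genes did (0.0636%). At an unadjusted p under 0.05 these 2 members were among 11.9% of genes. Leaving out 1 library moved the sex difference of *P2ry4* between -1.89 and -0.83, the latter without replicate 1 of the wild type males. Over the alternatives it was between -1.78 and -0.36. *Muc2* differed between the sexes by 0.27 (SE 0.25, adjusted p = 0.633) and *Muc13* by -0.19 (SE 0.24, adjusted p = 0.719).

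**Figure D2:**
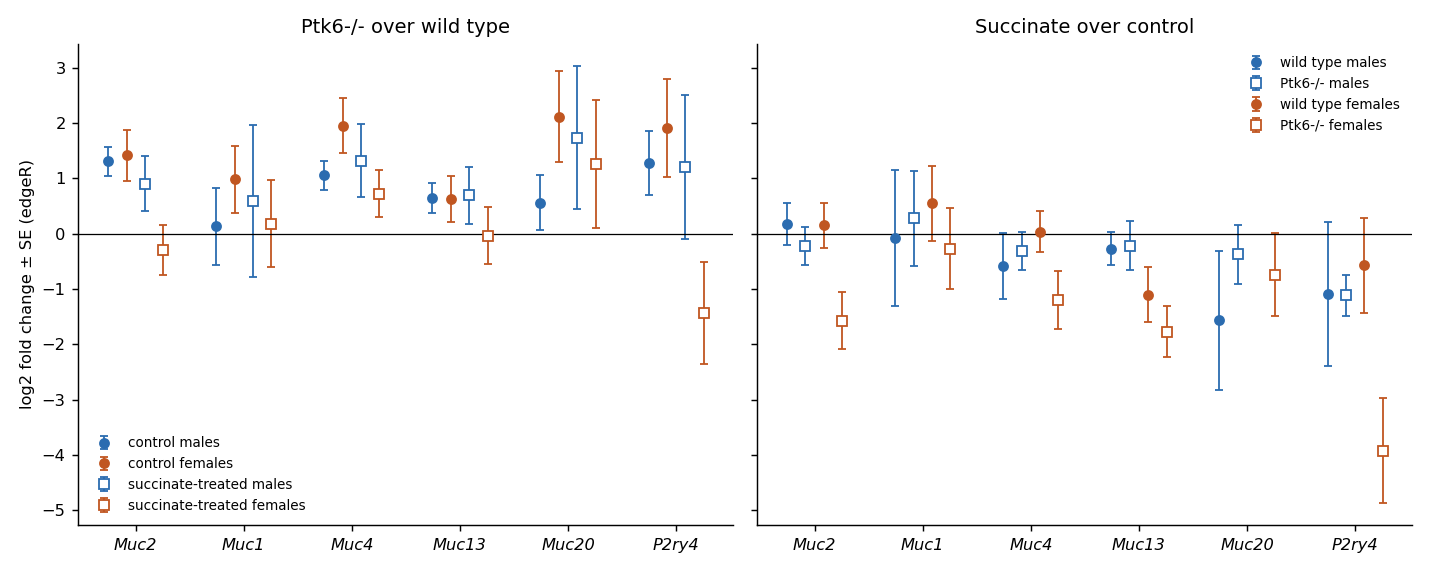
edgeR log2 fold changes with their SE for *Ptk6*-/- over wild type (left) and succinate over control (right), 3 mice against 3, blue for males and orange for females. Genotype values in controls sit above 0 for all 6 genes, and in succinate-treated females *Muc2* (-0.30) and *P2ry4* (-1.43) sit below 0. *Muc20* was not tested for succinate in wild type females.

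Genotypes were then compared under succinate. In males *Muc2* had 3111, 1603 and 1436 CPM in wild type and 3484, 3945 and 3899.7 CPM in *Ptk6*-/- mice, again without overlap (log2 fold change 0.91, SE 0.50). *Muc4* had 53.2, 12.3 and 9.60 CPM in wild type and 38.4, 68.6 and 78.9 CPM in *Ptk6*-/- males (log2 fold change 1.32, SE 0.66, edgeR adjusted p = 1.00). Replicate 1 of these wild type males was the highest of its group for *Muc2* and *Muc4* alike. *P2ry4* had 3.22, 0 and 0.748 CPM in wild type and 3.29, 3.90 and 2.00 CPM in *Ptk6*-/- males (log2 fold change 1.21, SE 1.295). *Muc13* had 3285, 2422 and 2032 CPM in wild type and 2392, 5666 and 4288 CPM in *Ptk6*-/- males (log2 fold change 0.69, SE 0.52, edgeR adjusted p = 1.00). No gene of 18904 was called by edgeR (0%), 514 had an unadjusted p under 0.05 (2.72%) and DESeq2 called 72, and none of the members was among the 514. Without replicate 1 of the *Ptk6*-/- males, the library rich in ribosomal RNA and distal intestine markers, the values were 0.89 for *Muc2*, 1.09 for *P2ry4*, 1.499 for *Muc4* and 0.91 for *Muc13*. Without replicate 1 of the wild type males they were 1.36, 3.07, 2.55 and 0.93, and edgeR called no member in either fit. *Muc2* was the 1 member higher without overlap, against 2.78% of genes. As it was chosen for its genotype and succinate pattern, nothing is read from this. B cell follicle markers were lower without overlap in these *Ptk6*-/- males (21.4, 10.9 and 28.5 CPM, against 75.0, 90.3 and 86.7 CPM in wild type). Their part in the member values was not tested.

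In succinate-treated females the genotypes could not be separated for any member. *Muc2* had 2989, 2270.3 and 1877 CPM in wild type and 1767, 1304 and 2721 CPM in *Ptk6*-/- females (log2 fold change -0.30, SE 0.45). *P2ry4* had 0.116, 0.584 and 1.16 CPM in wild type and 0.252, 0.0987 and 0.322 CPM in *Ptk6*-/- females (-1.43, SE 0.93). *Muc13* differed by -0.04 (SE 0.51, edgeR adjusted p = 0.996) and *Muc4* by 0.72 (SE 0.42, edgeR adjusted p = 0.931). No gene of 19180 was called by edgeR (0%), 867 had an unadjusted p under 0.05 (4.52%) and DESeq2 called 44, and no member's groups were free of overlap, against 10.8% of genes. Without the wild type library that held heart and Y-linked transcripts, the values were -0.36 for *Muc2*, -1.49 for *P2ry4*, -0.34 for *Muc13* and 0.67 for *Muc4*. Single libraries moved *P2ry4* between -1.93 and -0.61, the latter without replicate 3 of the wild type females, and *Muc4* between 0.11, without replicate 3 of the *Ptk6*-/- females, and 0.99. Under the other alternatives *P2ry4* was between -1.72 and -0.18. Enterocyte markers did not overlap between these groups (25697 to 34323 CPM in wild type, 15471 to 18108 CPM in *Ptk6*-/-), and their part was not tested.

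Succinate was compared with control in each sex and genotype. In *Ptk6*-/- females the fitted value of all 6 members was below 0, and edgeR called none of them. *Muc2* was at 1767, 1304 and 2721 CPM on succinate against 2928, 6672 and 7415 CPM in controls (log2 fold change -1.57, SE 0.52). *P2ry4* was at 0.252, 0.0987 and 0.322 CPM against 2.29, 7.31 and 0.577 CPM (-3.92, SE 0.95). Neither gene's groups overlapped, although replicate 3 of the controls, with 0.577 CPM, was near the succinate range of *P2ry4*. *Muc13* was at 1615, 830.3 and 1330.0 CPM on succinate against 3356, 6171 and 3150.4 CPM, also without overlap (-1.77, SE 0.46, edgeR adjusted p = 0.339). *Muc4* was at 20.3, 16.6 and 47.0 CPM against 54.4, 102 and 34.5 CPM (-1.20, SE 0.52, adjusted p = 0.471), with overlap. Leaving out 1 library moved *Muc4* between -1.79 and -0.67. The 17 genes called of 19334 (0.0879%) were all higher on succinate, and none was a member. DESeq2 called 424 genes, with *Muc13* among them (log2 fold change -1.75, DESeq2 adjusted p = 0.00387) and also *Muc2* and *P2ry4*, which were chosen on this contrast. The share of all genes that these calls make is given in the closing section on processing. The 3 members lower without overlap were *Muc2*, *P2ry4* and *Muc13*, from which nothing is read for the first 2, against 10.1% of genes. Other epithelial markers were lower in the same libraries. Enterocyte markers summed to 15471 to 18108 CPM on succinate and 18514 to 51944 CPM in controls, proximal intestine markers to 47.1 to 304 against 362 to 473 CPM, and distal intestine markers to 113 to 304 against 449 to 1858 CPM. Goblet cell markers overlapped (6954 to 9359 against 6605 to 17920.0 CPM). Their part in the member values was not tested.

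For *Muc2*, *Muc13*, *Muc4* and *P2ry4* the other mice gave values nearer to 0 with all libraries in. In *Ptk6*-/- males *Muc2* had 3484, 3945 and 3899.7 CPM on succinate, each below the lowest of the controls (4163 CPM), with a log2 fold change of -0.23 (SE 0.35). *P2ry4* had 3.29, 3.90 and 2.00 CPM on succinate, each below the lowest control of 5.04 CPM (-1.11, SE 0.37). These were the 2 members lower without overlap, against 12% of genes. Both were chosen for their genotype and succinate pattern, so nothing is read from this count. The length slope, described further on, did not overlap between these groups either (0.13 to 0.19 in controls, -0.20 to 0.06 on succinate), and with an offset for it *Muc2* was at 0.87 and *P2ry4* at -0.27. Proximal intestine markers were lower on succinate in these males, also without overlap (114, 384 and 467 CPM against 516, 628 and 644 CPM), and enterocyte markers higher (28385 to 52185 against 17357 to 27254 CPM), and their part in the member values was not tested. *Muc4* (-0.31, SE 0.35, edgeR adjusted p = 0.757) and *Muc13* (-0.22, SE 0.44, adjusted p = 0.859) were close to 0. Without the library rich in ribosomal RNA, the *Ptk6*-/- male values were -0.23 for *Muc2*, -1.21 for *P2ry4*, -0.11 for *Muc4* and 0.0147 for *Muc13*. In wild type males *Muc2* (0.17, SE 0.38) and *Muc13* (-0.27, SE 0.30, edgeR adjusted p = 0.947) varied within the replicate spread. *Muc4* there was at -0.59 (SE 0.60, adjusted p = 0.947) and reached -1.81 (edgeR adjusted p = 0.00460) without replicate 1 of the succinate-treated wild type males, the library with the highest *Muc4* of its group. Leaving that library out also took the number of genes called from 0 to 1077 of 18555 (5.8%). The other succinate-treated libraries had length slopes of -0.13 and -0.10, below all wild type male controls (-0.07 to 0.01). The part of the slope in these values was not tested. *P2ry4* in wild type males was at -1.09 (SE 1.305). Leaving out 1 library moved it between -2.95 and -0.12, the latter without replicate 1 of the wild type male controls, the library rich in ribosomal RNA. In wild type females *Muc2* was at 0.15 (SE 0.40) and *P2ry4* at -0.57 (SE 0.86; -1.39 to -0.012 leaving out 1 library). *Muc13* had 1100.1, 709 and 2063 CPM on succinate, all below the controls (-1.10, SE 0.50, edgeR adjusted p = 0.644), the 1 member lower without overlap, against 7.31% of genes. Without the library with heart and Y-linked transcripts *Muc13* was at -0.80. Enterocyte markers summed to 25697 to 34323 CPM in these succinate-treated libraries and 40825 to 47873 CPM in their controls, and smooth muscle markers to 3859 to 7649 against 3225 to 4122 CPM. Their part in the *Muc13* value was not tested. In wild type males no member was free of overlap, against 8.77% of genes. Proximal intestine markers there were lower on succinate without overlap (179 to 397 against 441 to 465 CPM). B cell follicle markers were higher, also without overlap (75.0 to 90.3 against 12.9 to 58.8 CPM). The part of these markers was not tested. For succinate edgeR called 0 genes (0%) in each of these 3 comparisons. An unadjusted p under 0.05 was found for 4.07% of genes in wild type males, 7.75% in *Ptk6*-/- males and 7.77% in wild type females, and DESeq2 called 50, 36 and 278 genes. The only member with an unadjusted p under 0.05 was *P2ry4* in *Ptk6*-/- males, which was chosen for its genotype and succinate pattern.

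The log2 fold change with succinate in *Ptk6*-/- mice minus that in wild type mice was -1.69 for *Muc2* (SE 0.63) and -3.32 for *P2ry4* (SE 1.34) in females. Leaving out 1 library moved the latter between -3.87 and -2.09, the value nearest to 0 being that without replicate 2 of the *Ptk6*-/- controls. In males it was -0.40 (SE 0.49) and -0.02 (SE 1.55). For *Muc13* this difference was -0.64 in females (SE 0.68, edgeR adjusted p = 0.903), and -0.95 to -0.12 leaving out 1 library. In males it was 0.06 (SE 0.52, adjusted p = 0.999). For *Muc4* it was -1.21 in females (SE 0.69, adjusted p = 0.772; -1.82 without replicate 3 of the succinate-treated *Ptk6*-/- females, -0.69 without replicate 2 of the *Ptk6*-/- controls) and 0.28 in males (SE 0.76, adjusted p = 0.993). For the interaction edgeR called 0 genes (0%) in either sex, 6.46% of genes in females and 3.8% in males had an unadjusted p under 0.05, and DESeq2 called 61 and 60. In females *Muc2* and *P2ry4* were among those with an unadjusted p under 0.05, and in males no member was. Both genes were chosen for their genotype and succinate pattern, so nothing is read from this.

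To set *Muc2* against the 4 membrane mucins examined here within each library, its share in the summed FPKM of these 5 genes was computed, which needs no scaling between libraries. A library's trend with gene length, described further on, stays in this share. *Muc2* is at percentile 96.9 of relative transcript length and *Muc13* at percentile 36.4. The part of that trend in the share was not tested. *Muc3* and *Muc3a* were not included. The share was 16.5%, 10.3% and 8.03% in wild type male controls and 19.2%, 17.9% and 14.7% in *Ptk6*-/- male controls. The genotypes overlapped, and *Muc13* was higher in the same libraries as *Muc2*. In succinate-treated males the share was 17.1%, 12.6% and 13.4% in wild type and 24.05%, 13.2% and 16.5% in *Ptk6*-/- mice. In females it was 7.80%, 16.6% and 22.1% in wild type controls and 15.9%, 19.0% and 33.9% in *Ptk6*-/- controls. The highest shares, 37.1% and 41.0%, were in succinate-treated wild type females, whose remaining library had 16.5%, and the 41.0% belongs to the library with heart and Y-linked transcripts. Succinate-treated *Ptk6*-/- females had 19.2%, 25.4% and 30.7%. Although *Muc2* was lower on succinate in *Ptk6*-/- females, its share overlapped that of their controls, and *Muc13* was lower too. In controls the log2 ratio of *Muc2* to the summed FPKM of *Muc1*, *Muc4*, *Muc13* and *Muc20* was -2.19 ± 0.85 in females and -2.63 ± 0.57 in males (SD, n = 6), a difference of 0.44 that did not exceed the spread (exact permutation within genotype, two-sided p = 0.265, smallest possible 0.005).

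**Figure D3:**
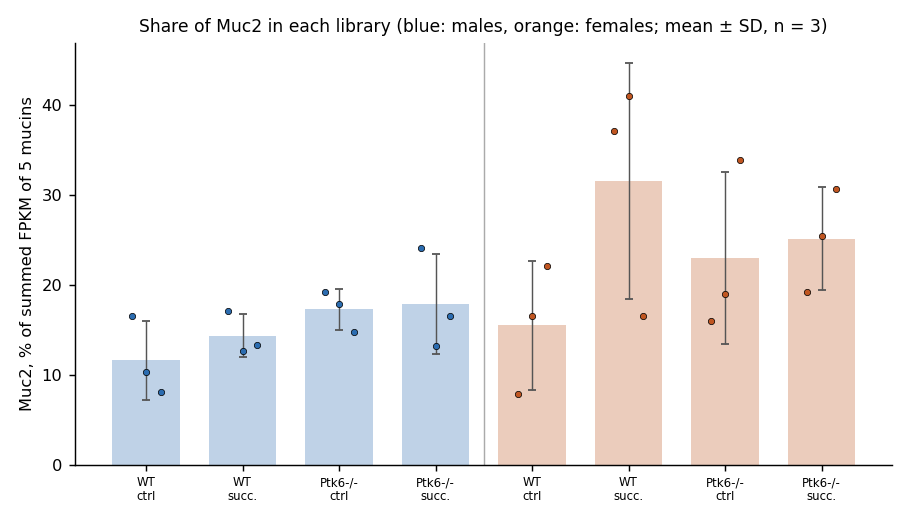
Share of *Muc2* in the summed FPKM of *Muc2*, *Muc1*, *Muc4*, *Muc13* and *Muc20*, in percent, for each library, with bars for the group mean and error bars for the SD over 3 mice. Shares range from 7.80% to 41.0%, and both genotypes overlap in each sex and treatment.

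Whether *P2ry4* followed *Muc2* was tested from library to library within groups, on log2(CPM + 0.5) minus the group mean, so that differences between groups could not carry the relation. Over 24 libraries Pearson's r was 0.158 (permutation within groups, two-sided p = 0.637, 0.808 after adjustment over 5 genes paired with *Muc2*) and Spearman's rho was 0.137 (permutation p = 0.621, adjusted 0.852). The 2 genes deviated to the same side in 13 of 24 libraries. Without the 2 libraries farthest from the median of *Muc2* (replicate 1 of the *Ptk6*-/- female controls and replicate 1 of the wild type male succinate group), r was -0.00388. Within males r was 0.756 and within females -0.262, and it was -0.0405 in controls and 0.396 on succinate. A relation of *P2ry4* with *Muc2* over libraries was thus not shown, and the pooled value covers values of opposite sign in the sexes, a difference that was not tested.

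*Muc2* likewise had no within-group relation past the threshold with *Muc4* (r = 0.373, permutation p = 0.239, adjusted 0.808), *Muc13* (r = 0.115, permutation p = 0.646, adjusted 0.808), *Muc1* (r = -0.259, permutation p = 0.346, adjusted 0.808) or *Muc20* (r = 0.0319, permutation p = 0.918, adjusted 0.918). Spearman's rho for these pairs was 0.312, 0.105, -0.317 and 0.0209, with permutation p of 0.267, 0.682, 0.233 and 0.940. Without the same 2 libraries r was 0.241, -0.0177, -0.238 and -0.0344.

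After these values were seen, *P2ry4* was paired with the membrane mucins in the same way. It followed *Muc4* within groups (r = 0.659, permutation p = 0.00769, adjusted over 4 pairs 0.0308, and rho = 0.622, permutation p = 0.00754, adjusted 0.0302). They deviated to the same side in 17 of 24 libraries, and r was 0.565 in males and 0.781 in females. Leaving out the 2 libraries farthest from the median of *P2ry4*, replicate 1 of the wild type male succinate group and replicate 3 of the *Ptk6*-/- female controls, gave r = 0.512. With *Muc13* r was 0.425 (permutation p = 0.0592, adjusted 0.118, rho 0.456 with p = 0.0616), or 0.353 without the 2 libraries. With *Muc20* it was 0.464 (permutation p = 0.118, adjusted 0.158, rho 0.359 with p = 0.176), or 0.237 without them. With *Muc1* it was 0.00514 (permutation p = 0.986, rho -0.0409 with p = 0.879), or 0.0939 without them. *Muc4* and *P2ry4* also moved with the library's slope on gene length, with within-group r of 0.788 and 0.581. Once that slope was removed from both, their r was 0.402 (permutation p = 0.0719, adjusted 0.288), which is past no threshold.

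**Figure D4:**
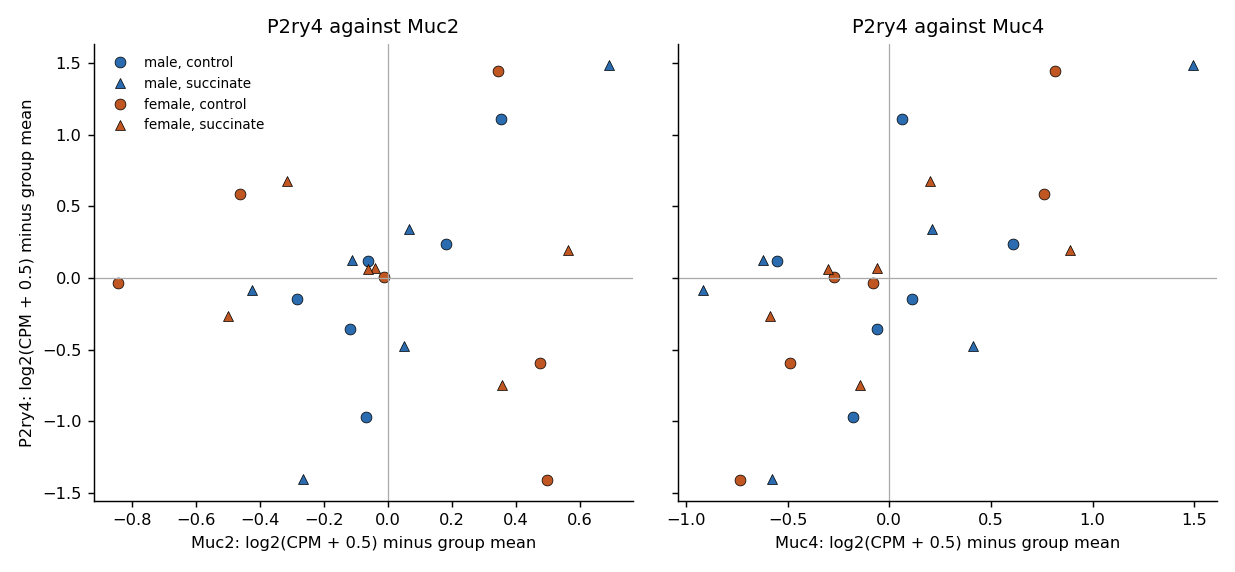
Deviation of each of the 24 libraries from its group mean in log2(CPM + 0.5), for *P2ry4* against *Muc2* (left, r = 0.158) and against *Muc4* (right, r = 0.659), blue for males, orange for females, circles for control and triangles for succinate. Points scatter on every side of the origin on the left and rise from lower left to upper right on the right.

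The length slope bears on the genotype values as well. It was between 0.13 and 0.19 in the *Ptk6*-/- male controls and between -0.07 and 0.01 in the wild type male controls. In *Ptk6*-/- female controls it was 0.10, 0.17 and -0.13, and in wild type female controls -0.01, -0.12 and -0.07. Over the 24 libraries the slope had an r of 0.788 with *Muc20*, 0.717 with *Muc4*, 0.612 with *P2ry4*, 0.531 with *Muc13*, 0.389 with *Muc2* and -0.203 with *Muc1*. *Muc2* and *Muc4* are among the longest genes, at percentiles 96.9 and 95.9 of relative transcript length, whereas *P2ry4* is at percentile 56.3 and *Muc13* at 36.4. With an offset that takes out each library's length trend, the log2 fold changes in control males were 0.42 for *Muc2*, 0.24 for *Muc4*, 0.23 for *Muc13* and 0.24 for *P2ry4*. In control females they stayed at 1.26 for *Muc2*, 1.52 for *Muc4* and 1.66 for *P2ry4*. Over both sexes *Muc4* was then at 0.88 (edgeR adjusted p = 0.308) and no longer called. Over all genes in control males, 99 of the 142 called genes were higher in *Ptk6*-/- mice, against 41 of 225 with the offset. Length slope and genotype cannot be told apart in these control males, since their slopes do not overlap.

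**Figure D5:**
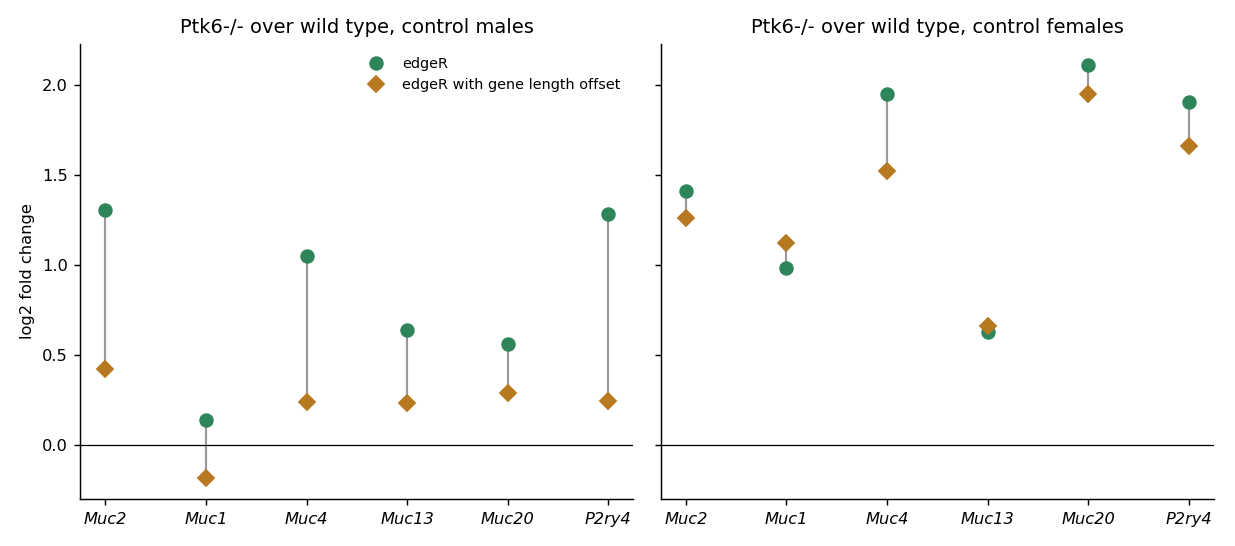
edgeR log2 fold change of *Ptk6*-/- over wild type in control males (left) and control females (right), without (circles) and with (diamonds) an offset that takes out the length trend of every library. In males *Muc2* goes from 1.31 to 0.42 and *P2ry4* from 1.28 to 0.24, and in females they go from 1.41 to 1.26 and from 1.91 to 1.66.

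The other genes of the mucus layer were read for the same comparisons. Of 15 goblet cell mucus genes, 14 were tested in control males, where 5 had a positive and 9 a negative log2 fold change, none called, with a median of -0.23 against 0.02 over all genes. Over both sexes 1 of the 15 was called, against 0.71% of all genes tested. The gene called was *Ern2*, the endoplasmic reticulum stress sensor of mucus-secreting cells, which was higher in *Ptk6*-/- mice (log2 fold change 1.06, SE 0.21, edgeR adjusted p = 0.0229). The most abundant genes of the list were *Zg16*, a lectin of the mucus (log2 fold change -0.48, adjusted p = 0.383), and *Fcgbp*, a protein that binds to the MUC2 gel (0.11, adjusted p = 0.785). These 2 were picked with their values in view. The list's median over both sexes was -0.02. In *Ptk6*-/- females on succinate the goblet cell list had 9 positive and 6 negative values with a median of 0.25. In the *Ptk6*-/- female controls the sum of 7 goblet cell markers was 6605, 8570 and 17920.0 CPM, while *Muc2* was 2928, 6672 and 7415 CPM.

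Of 7 other mucin genes, 4 were tested over both sexes and none was called. The membrane mucin *Muc3*, with a mean of 2323 CPM, was at 0.66 (SE 0.26, edgeR adjusted p = 0.149) and *Muc3a* at 0.65 (SE 0.19, adjusted p = 0.0628), close to *Muc13* (0.62). Of 22 further nucleotide receptor and extracellular nucleotide enzyme genes, 20 were tested and none was called, 16 with positive and 4 with negative values and a median of 0.07 against 0.03 over all genes. The most abundant were the ectonucleotidase *Entpd8* (97.4 CPM, log2 fold change 0.01) and the channel gene *Panx1*, through which cells release ATP (82.9 CPM).

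The genes most like *Muc2* over the 24 libraries, among 11855 genes with at least 10 counts in each library, were *Ptpn23* (r = 0.918), *Polr2a* (0.876), *Zfhx2* (0.867), *Samd4b* (0.841) and *Tcf7l1* (0.837). None is on the goblet cell list. Those most like *P2ry4*, among 21693 genes and leaving out a gene with a Gm or Rik symbol at rank 2, were *Adcy9* (r = 0.912), *Nr2c2* (0.909), *Tcf20* (0.904), *Ep300* (0.897) and *Ralgapa2* (0.897). *Muc4* was 206th in that list (r = 0.795), *Muc13* 394th (0.752), *Muc20* 1318th (0.634), *Muc2* 2290th (0.541) and *Muc1* 10834th (-0.0284). Ranked over the same 21693 genes by likeness to *Muc2*, *Muc4* was 188th (r = 0.663), *P2ry4* 709th and *Muc13* 928th (r = 0.512). These correlations include differences between groups and shared library properties. These 5 genes named for *P2ry4* had an r of 0.631 to 0.744 with the library's length slope.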

How the data were processed

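Poly(A) RNA of the distal jejunum of 24 mice was sequenced, 1 library per mouse. Per the study's methods, reads were trimmed with Cutadapt, mapped with HISAT2 and assembled with StringTie, and the submitters' processing notes name FastQC, StringTie and GRCm39. The counting program and the annotation release are not given in the sources used here. The authors deposited counts per gene without normalization and FPKM values made with StringTie and ballgown, and both tables were used. Columns of the authors' own comparisons were not used.

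Counts were normalized with TMM and tested by edgeR's quasi-likelihood test (edgeR 4.0.16, limma 3.58.1, R 4.3.3) in 13 comparisons of the 8 groups, on genes reaching 10 counts in 3 or more of the libraries compared. Benjamini-Hochberg adjustment was over all genes tested, and a call needed an adjusted p under 0.05 and at least a 2-fold change. Members, gene lists and tests were chosen with earlier results of these data known. Named genes were the 6 members, the called (or else the 2 highest) genes of 3 lists (with *Zg16* and *Fcgbp* added), and the 5 genes most correlated with *Muc2* and with *P2ry4*. A gene's relative length was read from its ratio of count to FPKM. The length offset was each library's lowess trend (span 0.3) on that length.

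Correlations used log2(CPM + 0.5) and 100000 permutations within groups (Python 3.11.15, numpy 2.4.6). Alternatives were DESeq2 1.42.0, its size factors, other count filters, voom with sample weights, limma on log2(FPKM + 1) for a mean FPKM of at least 0.5, 1 fit of all 24 libraries, the length offset, the replicate number as a block, and leaving out each library. The edgeR scripts were tested on simulated data. The main tests used every library. The 95% intervals of log2 fold changes are 1.96 standard errors either side and include the spread between mice. The floor of 3 counts covers counting error only.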

Additional observations from a re-analysis of the deposited data

How the results depend on the processing

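Counts of members called depended on the processing. In control males, where 1 member was called, the number was 2 with DESeq2 (1.02% of all genes called), 2 with no filter on low counts (0.658%), 2 with at least 10 counts in every library (1.27%), 3 with voom (647 of 19218 genes, 3.37%), and 0 with limma on FPKM (1.21%), with all 24 libraries in 1 fit (0.00461%), with the length offset (1.17%) and with the length offset and replicate block (0.239%) (0 to 2 when 1 library was left out). In control females, where 0 were called, it was 1 with DESeq2 (0.578%) and 3 with voom (2044 of 19035 genes, 10.7%) (0 to 3 leaving out a library). Under voom it was 4 for genotype in succinate-treated males (1927 of 18904 genes, 10.2%), 2 for succinate in wild type males (1556 of 19183 genes, 8.11%; 0 to 1 leaving out a library) and 1 for succinate in *Ptk6*-/- females (236 of 19334 genes, 1.22%), where DESeq2 called 3 (424 of 29572, 1.43%). Over both sexes, where edgeR called *Muc2* and *Muc4*, it was 3 with DESeq2 (0.992% of all genes) and 3 with voom (4.1%), both with *P2ry4*, 1 with FPKM (0.172%) and 1 with the replicate block (0.304%), both without *Muc4*, 0 with the length offset (0.0294%) and 0 with offset and block (0.0245%), and 0 to 3 leaving out a library. The cause was not tested.

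Replicate numbers did not pair the mice. Same-numbered libraries deviated with a mean r of -0.0093 (84 pairs) and others with 0.0040. With the replicate block, 0 members were called in control males and 1 over both sexes, and 5 genes of all were called in control males, against 142 without it. Under the block *Muc1* in control males was at -0.037, *Muc13* in succinate-treated females at 0.057, and the *Muc13* interaction of genotype and succinate in males at -0.0016.

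Directions turned for values that edgeR had not called. For genotype in control males, *Muc1* was at -0.23 with voom, -0.19 with the length offset and -0.30 with offset and block (leaving out 1 library gave -0.17 to 0.53). In succinate-treated males *Muc13* was at -0.030 with FPKM, and *Muc1* ranged from -0.067 to 1.88 leaving out a library. In succinate-treated females *Muc13* was at 0.40 with voom and 0.25 with FPKM (-0.34 to 0.47 leaving out a library), and *Muc1* at -0.29 with voom, -0.048 with the offset and -0.11 with offset and block (-0.34 to 0.66). For succinate in wild type males *Muc13* was at 0.11 with FPKM, *Muc1* ranged from -1.39 to 0.50, and *Muc2* (0.17) was at -0.12 with voom, -0.23 with the offset and -0.030 with offset and block (-0.29 to 0.42). In *Ptk6*-/- males *Muc4* was at 0.57 with the offset and 0.60 with offset and block (-0.55 to 0.029 leaving out a library), *Muc13* at 0.33 and 0.33 (-0.51 to 0.021), and *Muc1* ranged from -0.30 to 0.68. *Muc2* there was at 0.87 with the offset and 0.63 with offset and block, against -0.23. In wild type females *Muc4* was at -0.0084 with no filter (-0.19 to 0.54) and *Muc1* at -0.056 with voom, and *Muc2* (0.15) ranged from -0.057 to 0.43. In *Ptk6*-/- females *Muc1* ranged from -0.79 to 0.14.

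For the interaction of genotype and succinate in males, *Muc13* was at -0.026 with no filter and -1.09 with FPKM (-0.23 to 0.30 leaving out a library), *Muc4* at -0.41 with FPKM (-0.11 to 1.47), and *Muc1* ranged from -0.21 to 1.82. *Muc2* (-0.40) was at 1.09 with the offset and 0.66 with offset and block (-0.67 to 0.026), and *P2ry4* (-0.02) at 0.037 with DESeq2, 0.24 with the block, 1.23 with voom, 1.87 with the offset and 1.39 with offset and block (-1.02 to 1.81). In females *Muc20* ranged from -1.60 to 0.37. For sex by genotype, *Muc13* was at 0.0031 with at least 10 counts in every library, 0.085 with voom, 0.42 with the offset and 0.41 with offset and block (-0.39 to 0.30), *Muc2* at -0.63 with voom and -0.40 with FPKM (-0.14 to 0.42), and *P2ry4* at -0.0012 with voom and -0.33 with FPKM (-0.56 to 1.22). The r of *Muc2* with *P2ry4* ranged from -0.103 to 0.386 leaving out a library and was below 0 without replicate 1 of the wild type male succinate group. The r of *P2ry4* with *Muc20* was -0.0387 once the length slope was removed, and without the 3 libraries that stood apart that with *Muc1* was -0.0589. Over all settings, 1233 of 1329 log2 fold changes of members kept their sign and 96 did not. *Muc1*, *Muc20* and *P2ry4* had the fewest counts of the members, and all 3 were at 0 in the library with the most counts.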
